A study of Homo sapiens with 4 samples.

Results

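Cells detect broken or stalled DNA through a set of sensor, kinase and repair proteins, and 46 genes that encode such proteins were examined in HGC27, a human gastric cancer cell line. They were selected by name, with earlier results of these data known, and comprise kinases of the DNA damage checkpoint with their activators, sensors of double-strand breaks, proteins of homologous recombination, end joining and Fanconi anemia, and 3 mismatch repair genes. All 46 were among the 14431 genes of the deposited table and passed the filter on low values, a group mean of 1 CPM or more (CPM, read counts scaled to the size of the library). RNA was sequenced in 4 libraries. The siAARS1 group was 2 libraries of cells given a small interfering RNA against AARS1, the cytosolic alanyl-tRNA synthetase, and carried the genotype label AARS1 knockdown. The control group was 2 libraries of WT cells, which carried NC in their library names. These names do not say whether the cells were given a control small interfering RNA. Both groups were grown in DMEM without glucose and with 25 mM lactate, for 24 h by the labels, though another duration is given elsewhere in the study, so the time is uncertain. Every library had lactate, and nothing in the labels says that the libraries of a group came from separate cultures, so p-values measure only the spread between these samples.

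A double-strand break is bound by the MRE11, RAD50 and NBN complex, which recruits the kinase ATM, whereas single-stranded DNA at stalled forks is read by the kinase ATR with its partner ATRIP. The break is then either joined directly by Ku, DNA-PK and ligase IV, or cut back to single strands, prepared for strand exchange by BRCA2 and copied from the sister chromatid. Fanconi anemia proteins unhook crosslinks between DNA strands, with a large core complex that attaches ubiquitin to FANCD2 and FANCI. Many of these genes are transcribed most in S and G2 phase.

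The targeted gene, listed as AARS (ENSG00000090861, chr16:70252295-70289543 in GRCh38), was at 428 and 417 CPM in the control libraries and at 292 and 298 CPM in the siAARS1 libraries. Both siAARS1 libraries were below both controls, at 69.7% of the control mean, or -0.52 on the log2 scale (SE 0.0357, limma adjusted p = 2.52e-11). Reads recovered over the listed genes numbered 30653210 to 33522573 per library, and the library sizes behind the CPM were 0.749% to 1.89% above these counts. By the CPM steps, 1 read was worth 0.0293 to 0.0324 CPM and 3 reads, the limit that a count of 0 allows, 0.0880 to 0.0971 CPM. These limits cover counting error only. The least abundant of the 46 genes, LIG4, still had 34 and 35 reads in the controls. Of the marker lists for the labelled cell type, 2 of 5 epithelial markers were listed, and KRT8 and CDH1 summed to 27.3 and 27.0 CPM in control against 7.29 and 6.14 CPM in siAARS1. EPCAM, KRT18 and KRT19 were not listed. VIM and FN1, 2 of 3 mesenchymal markers, summed to 5203 and 5143 CPM in control against 4764 and 4651 CPM in siAARS1. Of other cell types, 0 of 3 endothelial and 4 of 4 fibroblast markers were listed, the last summing to 2805 and 2906 CPM in control against 2174 and 2098 CPM in siAARS1. The part of these marker changes in the results below was not tested.

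Most of the repair genes had a higher share of the reads in siAARS1 cells. By limma, 37 of the 46 passed an adjusted p of 0.05, where 70.7% of all 14199 tested genes did. Of these, 32 rose, or 69.6% of the members, against 32.6% of all tested genes, and 5 fell, or 10.9%, against 38% of all tested genes. An increase of at least 2-fold was called for 26 members, or 56.5%, against 10.6% of all tested genes. The lowest value was that of FANCG, at -0.41 on the log2 scale, so no member fell 2-fold at any p. A decrease of at least 2-fold was called for 1.63% of all tested genes. Both siAARS1 libraries lay above both controls for 33 members (38.5% of all tested genes), below them for 8 (46.6% of all tested genes), and the groups overlapped for 5. The median log2 fold change was 1.29 over the members and -0.05 over all tested genes. The fold changes of all genes moved with the GC content and length of their transcripts, and with the trend over coding sequence and 3′ UTR taken out the members' median was 0.13. Since 1 was added to each CPM before the logarithm, log2 values of low genes are understated. In RNA from whole cultures, a change in which cells are present and a change in RNA per cell cannot be told apart, and CPM gives shares of a library, not amounts per cell.

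**Figure D1:**
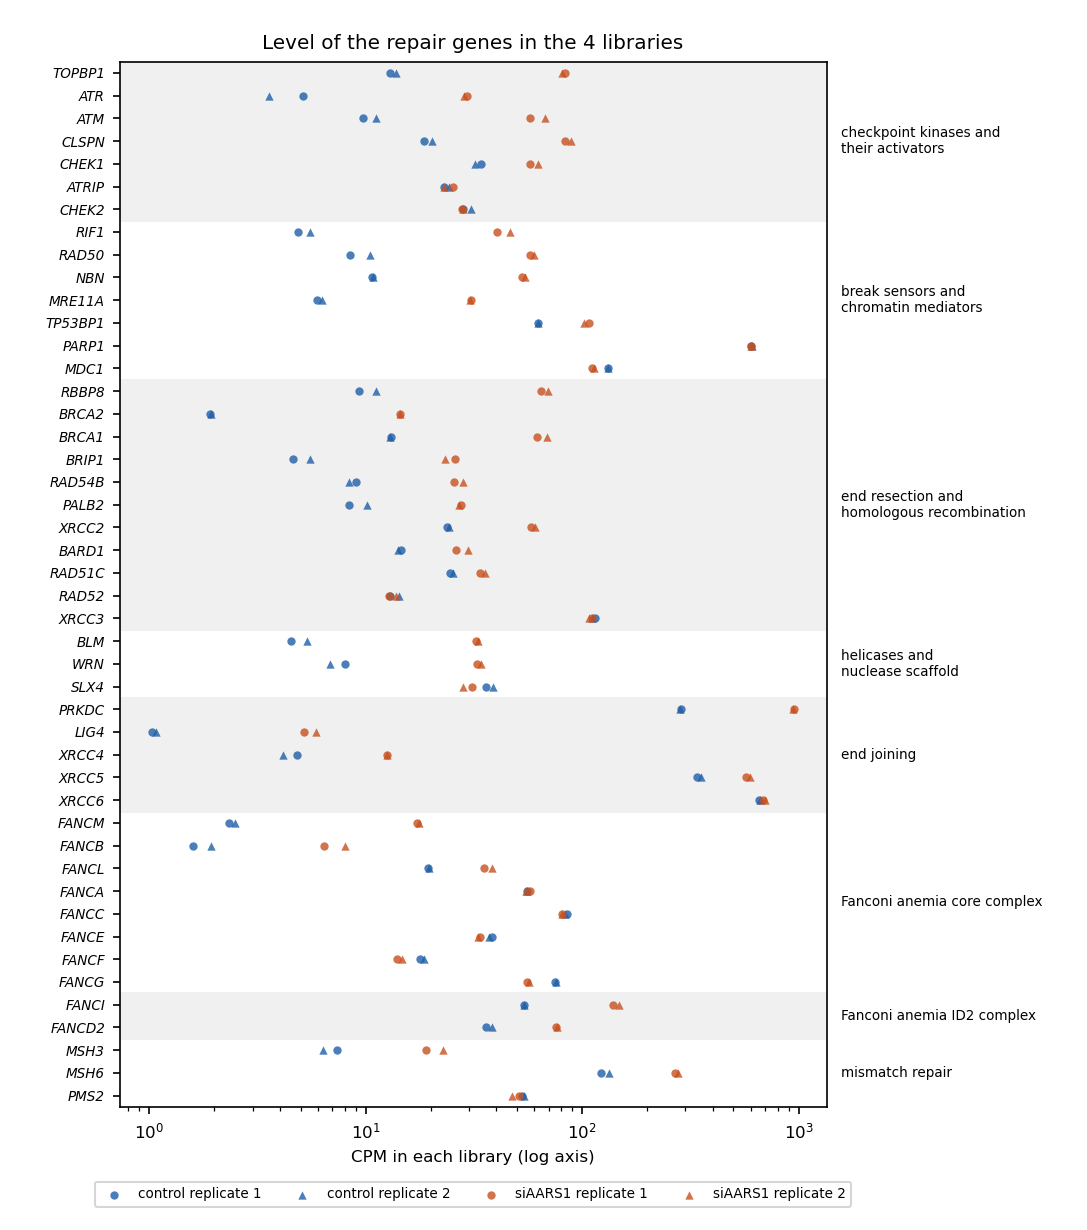
Level of each of the 46 genes (rows, grouped by role) in CPM on a log axis, with blue for the 2 control and red for the 2 siAARS1 libraries. The red points lie to the right of both blue points for 33 genes and to the left for 8, and the points of a group lie close together beside the gap between groups for genes such as RIF1, ATM and BRCA2.

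The starts of 7 members are printed because they carry the contrasts described below. They are stretches without annotated exons from the 250 bases before a RefSeq transcript start (GRCh38.p14), written 5′ to 3′ on the strand of the gene. RIF1 and CLSPN rose several-fold, BRCA1 and PALB2 share the printed bases with a neighbour that starts in the other direction, CHEK1 holds a TEAD motif, FANCC was not called and holds an E2F motif, and FANCG fell the most. Capitals mark matches, on either strand, to E2F (TTTGGCGC or TTTCCCGC), CHR (TTTGAA), the CCAAT box (CCAAT, or ATTGG on the other strand), TEAD (GGAATG, or CATTCC) and the GC box (GGGCGG, or CCGCCC). Where matches touch or overlap, as ATTGG and GGGCGG do in CLSPN, the capitals run together.
RIF1 chr2:151409652-151409882, plus strand: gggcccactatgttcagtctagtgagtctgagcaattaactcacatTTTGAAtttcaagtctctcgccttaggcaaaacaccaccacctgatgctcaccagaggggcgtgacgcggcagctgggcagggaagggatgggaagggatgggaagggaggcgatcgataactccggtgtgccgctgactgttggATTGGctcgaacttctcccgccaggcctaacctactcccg
CLSPN chr1:35769979-35770228, minus strand: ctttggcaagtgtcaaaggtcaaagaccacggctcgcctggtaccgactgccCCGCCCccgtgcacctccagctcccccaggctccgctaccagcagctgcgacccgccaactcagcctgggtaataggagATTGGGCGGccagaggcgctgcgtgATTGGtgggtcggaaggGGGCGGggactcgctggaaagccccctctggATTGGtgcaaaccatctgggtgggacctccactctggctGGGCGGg
BRCA1 chr17:43125484-43125609, minus strand: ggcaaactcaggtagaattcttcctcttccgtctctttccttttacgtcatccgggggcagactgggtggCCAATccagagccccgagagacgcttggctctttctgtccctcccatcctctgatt
PALB2 chr16:23641311-23641391, minus strand: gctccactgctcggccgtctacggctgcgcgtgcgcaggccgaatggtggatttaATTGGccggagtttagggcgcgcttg
CHEK1 chr11:125626035-125626228, plus strand: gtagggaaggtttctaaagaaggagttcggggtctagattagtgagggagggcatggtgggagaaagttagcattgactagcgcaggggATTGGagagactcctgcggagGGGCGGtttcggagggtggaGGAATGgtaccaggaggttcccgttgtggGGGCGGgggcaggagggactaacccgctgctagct
FANCC chr9:95317710-95317959, minus strand: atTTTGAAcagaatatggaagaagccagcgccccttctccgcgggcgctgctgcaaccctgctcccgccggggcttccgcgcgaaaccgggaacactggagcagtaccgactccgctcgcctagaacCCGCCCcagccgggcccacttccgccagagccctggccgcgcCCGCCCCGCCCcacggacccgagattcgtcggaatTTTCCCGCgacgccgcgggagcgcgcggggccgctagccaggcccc
FANCG chr9:35080017-35080192, minus strand: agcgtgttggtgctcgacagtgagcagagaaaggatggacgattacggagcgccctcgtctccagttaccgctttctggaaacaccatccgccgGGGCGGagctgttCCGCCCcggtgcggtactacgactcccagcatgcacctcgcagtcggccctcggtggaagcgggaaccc

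Among the checkpoint kinases and their activators, 5 of 7 rose and 2 did not pass the test, with a median log2 fold change of 2.10. ATM, the kinase that answers double-strand breaks (ENSG00000149311, chr11:108222484-108369102), was at 9.68 and 11.1 CPM in control against 57.5 and 67.5 CPM in siAARS1. Both siAARS1 libraries stood far above both controls, and the mean was 6.01-fold higher (log2 2.48, SE 0.0812, limma adjusted p = 6.1e-17). ATR, the kinase of stalled forks (ENSG00000175054, chr3:142449235-142578826), was at 5.10 and 3.56 CPM in control against 29.3 and 28.5 CPM in siAARS1. The ATR controls differed from each other more than those of ATM, but the groups stood well apart (log2 2.50, SE 0.113, limma adjusted p = 1.73e-14). TOPBP1, which activates ATR, rose from 12.9 and 13.7 to 83.3 and 80.3 CPM (log2 2.53, SE 0.0626, limma adjusted p = 6.9e-19). As a ratio of mean CPM it was 6.13-fold higher and ATR 6.67-fold, so the order of these 2 genes depends on the scale. CLSPN, the adaptor claspin that links ATR to CHEK1, rose by 2.10 on the log2 scale and CHEK1, the kinase ATR activates, by 0.84. ATRIP, the obligate partner of ATR, was at 23.0 and 24.2 CPM in control against 25.2 and 23.1 CPM in siAARS1. Those groups overlapped (log2 0.03, SE 0.0730, limma adjusted p = 0.71). CHEK2, the effector kinase below ATM and the lowest of these 7, was at 28.1 and 30.6 against 27.9 and 28.2 CPM and overlapped too (log2 -0.06, limma adjusted p = 0.429).

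Of the break sensors and chromatin mediators, 5 of 7 rose, 1 fell and 1 was not called, with a median of 2.15. RIF1, which limits the cutting back of DNA ends (ENSG00000080345, chr2:151409883-151508013), had the highest fold change of all 46 genes. It was at 4.84 and 5.55 CPM in control against 40.4 and 46.6 CPM in siAARS1, an 8.38-fold difference of means (log2 2.84, SE 0.0921, limma adjusted p = 4.82e-17). The 3 genes of the MRE11, RAD50 and NBN complex all rose. RAD50 went from 8.47 and 10.4 to 57.4 and 59.7 CPM, NBN from 10.7 and 10.8 to 52.9 and 54.2 CPM, and MRE11, listed as MRE11A, from 5.92 and 6.30 to 30.6 and 30.3 CPM. These are log2 increases of 2.52, 2.22 and 2.15. TP53BP1, the chromatin-bound partner of RIF1, rose by only 0.73. PARP1, which marks nicks with poly(ADP-ribose), was among the most abundant members, at 605 and 606 CPM in control against 603 and 603 CPM in siAARS1. Its difference was smaller than its SE (log2 -0.01, SE 0.0337, limma adjusted p = 0.864). MDC1, the scaffold on phosphorylated histone H2AX, fell from 132 and 131 to 111 and 114 CPM (log2 -0.23, SE 0.0414, limma adjusted p = 5.52e-05), with both siAARS1 libraries below both controls.

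In end resection and homologous recombination, 9 of 11 rose and 2 were not called, with a median of 1.46. RBBP8, which encodes the resection factor CtIP, was at 9.33 and 11.1 CPM in control, against 64.6 and 69.5 CPM in siAARS1 (log2 2.61, SE 0.0772, limma adjusted p = 1.13e-17). BRCA1, the ubiquitin ligase that promotes resection (ENSG00000012048, chr17:43044295-43170245), went from 13.1 and 12.9 to 62.1 and 68.7 CPM, a 5.04-fold difference (log2 2.25, SE 0.0677, limma adjusted p = 1.51e-17). BRCA2, a mediator of strand exchange (ENSG00000139618, chr13:32315474-32400266), went from 1.91 and 1.92 to 14.3 and 14.4 CPM. Its control reads numbered 65 and 61, and its groups did not come near each other (log2 2.40, SE 0.116, limma adjusted p = 5.51e-14). The helicase gene BRIP1 rose by 2.08, RAD54B by 1.52, PALB2, which brings BRCA2 to BRCA1, by 1.46, and XRCC2, another recombination gene, by 1.27. BARD1, the partner of BRCA1, rose by 0.92 and RAD51C, which acts with XRCC2 in recombination, by 0.46, the smallest of the 32 increases. RAD52, a single-strand annealing protein, was at 12.96 and 14.28 against 12.8 and 13.8 CPM (log2 -0.03, limma adjusted p = 0.768). XRCC3, which acts with RAD51C, was at 114 and 111 against 111 and 108 CPM (log2 -0.04, limma adjusted p = 0.414), and both groups overlapped in each of these 2 genes.

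The RecQ helicase genes BLM and WRN both rose, while SLX4, the scaffold for structure-specific nucleases, fell. BLM was at 4.52 and 5.33 CPM in control against 32.4 and 32.8 CPM in siAARS1 (log2 2.51, SE 0.0937, limma adjusted p = 5.75e-16). WRN rose by 2.04 on the log2 scale. SLX4 was at 36.0 and 38.9 CPM in control against 31.1 and 28.3 CPM in siAARS1, with no overlap (log2 -0.33, SE 0.0665, limma adjusted p = 0.000188).

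In end joining, 4 of 5 rose and 1 was not called, with a median of 1.31. PRKDC, the catalytic subunit of DNA-PK, had the smallest p of all 46 genes and the largest gain in CPM. It was at 287 and 284 CPM in control against 955 and 945 CPM in siAARS1 (log2 1.73, SE 0.0342, limma adjusted p = 2.37e-20). LIG4, the ligase that seals the joined ends, went from 1.03 and 1.07 to 5.18 and 5.87 CPM (log2 1.67) and its cofactor XRCC4 rose by 1.31. The subunits of the Ku heterodimer differed in the deposited CPM. XRCC5, its larger subunit, rose from 340 and 352 to 572 and 598 CPM (log2 0.75, SE 0.0366), while XRCC6, its smaller subunit, was at 656 and 661 against 685 and 697 CPM. Both siAARS1 libraries were above both controls for XRCC6, but the difference did not pass the test (log2 0.07, SE 0.0338, limma adjusted p = 0.0693). In the fit on coding sequence and 3′ UTR, XRCC5 was called lower, at -0.13, and XRCC6 stood at 0.00. The call for XRCC6 turned with the fit, from higher in 4 of the 17 fits, such as edgeR with TMM scaling of the recovered reads (log2 0.11), to lower in 1, with median scaling (log2 -0.16).

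The Fanconi anemia core complex was the role with the most mixed result, with 3 of 8 genes higher, 3 lower and 2 not called and a median of -0.02. These shares, 37.5% higher and 37.5% lower, were near those over all tested genes, 32.6% and 38%. FANCM, the translocase that anchors the complex to DNA, was at 2.35 and 2.49 CPM in control against 17.3 and 17.5 CPM in siAARS1 (log2 2.43, SE 0.110, limma adjusted p = 1.76e-14). FANCB rose by 1.57 and FANCL, the ubiquitin ligase subunit, by 0.88. FANCG (ENSG00000221829, chr9:35073835-35080016), a scaffold subunit, fell from 74.9 and 75.9 to 55.9 and 56.9 CPM, to 74.8% of the control mean (log2 -0.41, SE 0.0484, limma adjusted p = 1.44e-07). FANCF, an adaptor of the core, went from 17.9 and 18.5 to 14.0 and 14.6 CPM and fell by 0.33 on the log2 scale, and FANCE, from 38.2 and 37.2 to 33.8 and 32.9 CPM, by 0.17. FANCE was called lower in 10 of the 17 fits. It was not called without control replicate 1 or without siAARS1 replicate 2 (log2 -0.15 in both), and stood at 0.12 with the trend over the whole transcript removed and at 0.14, called higher, in the fit on coding sequence and 3′ UTR. FANCA was at 55.5 and 55.4 against 57.2 and 55.3 CPM (log2 0.02, limma adjusted p = 0.757). FANCC was at 84.7 and 83.1 against 80.9 and 81.0 CPM (log2 -0.05, limma adjusted p = 0.325), with siAARS1 below control by less than the test could separate. Both substrates of the complex rose, FANCI from 53.8 and 53.8 to 139 and 148 CPM (log2 1.40) and FANCD2 from 35.8 and 38.1 to 75.9 and 76.9 CPM (log2 1.03).

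Of the mismatch repair genes, MSH3 went from 7.33 and 6.33 to 18.9 and 22.6 CPM (log2 1.47, SE 0.103, limma adjusted p = 3.28e-11) and MSH6 rose by 1.08. Both encode proteins that recognise mismatches. PMS2, an endonuclease of mismatch repair, was at 52.96 and 53.71 against 50.8 and 47.2 CPM, just short of the threshold (log2 -0.12, SE 0.0547, limma adjusted p = 0.0542). Its value is uncertain because 11 annotated pseudogenes resemble it and the way shared reads were counted is not given in the sources used here. The same holds for XRCC6 with 5 such copies, CHEK2 with 4, PARP1 with 2, and FANCD2, MRE11A and RBBP8 with 1 each. Whether the counting used strand is not given either. Listed genes overlap ATM (NPAT), BRCA1 (NBR2), MRE11A (ANKRD49), FANCI (POLG), FANCL (VRK2), FANCA (ZNF276), NBN (DECR1), TP53BP1 (TUBGCP4), CHEK2 (HSCB), XRCC4 (TMEM167A), XRCC3 (KLC1) and MSH6 (FBXO11) on the other strand, and CHEK1 (STT3A), ATRIP (TREX1) and RAD54B (FSBP) on the same strand, so that reads there may be shared.

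In the deposited CPM, the ratio between partner genes shifted in some pairs and hardly in others. Levels of different genes were compared as CPM per kb of the transcript with the longest coding sequence, which gives each gene its level per length, and the pairs were chosen after the values had been seen. ATR stood at 0.10 of the level of ATRIP in control (0.12 and 0.08 in the 2 libraries) and at 0.66 in siAARS1 (0.64 and 0.68). Per length, XRCC6 led in both groups, at 243 and 255 CPM per kb, and BRCA2 came last in both, at 0.160 and 1.201 CPM per kb. PARP1 stood at 153 and 152 CPM per kb and was passed by XRCC5, which went from 92.1 to 156. RBBP8 moved from place 26 of the 46 to place 9 and FANCF from place 20 to place 37. The ratio of FANCM to FANCA went from 0.03 to 0.24, that of RIF1 to TP53BP1 from 0.06 to 0.29, and that of PRKDC to XRCC6 from 0.09 to 0.28. In each of these pairs the gene that was scarcer in control gained on the more abundant one, though not in every pair compared. In the fit on coding sequence and 3′ UTR, these partners had log2 fold changes close to each other, of 0.27 and 0.26 for ATR and ATRIP, 0.25 and 0.22 for FANCM and FANCA, -0.08 and -0.04 for RIF1 and TP53BP1, and 0.05 and 0.00 for PRKDC and XRCC6. BRCA1 passed its partner BARD1, from 0.69 to 1.77 times its level. FANCL drew level with FANCG, from 0.40 to 1.01. In other pairs the gene more abundant in control gained. CHEK1 went from 1.33 to 2.51 times the level of CHEK2, and FANCI from 1.60 to 2.07 times that of FANCD2. The ratio of NBN to MRE11A stayed at 1.01 in both groups, while that of RAD50 to MRE11A moved by 1.25-fold. The ratio of MSH6 to MSH3 fell from 10.3 to 7.20, since MSH3, the scarcer of these 2 genes, rose more. Other partners lay further apart in the fit on coding sequence and 3′ UTR. BRCA1 and BARD1 were at 0.35 and -0.30 there, FANCL and FANCG at 0.37 and -0.16, and CHEK1 and CHEK2 at 0.70 and -0.31. NBN and MRE11A, whose ratio did not move in the deposited CPM, were at 0.41 and 0.92 in that fit. Across the 46 genes, log2 fold change and control CPM had a rank correlation of -0.69, which was -0.15 over the 13819 tested genes with an annotated transcript. This is a description across genes, which are not replicates, and the control level enters both measures.

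**Figure D2:**
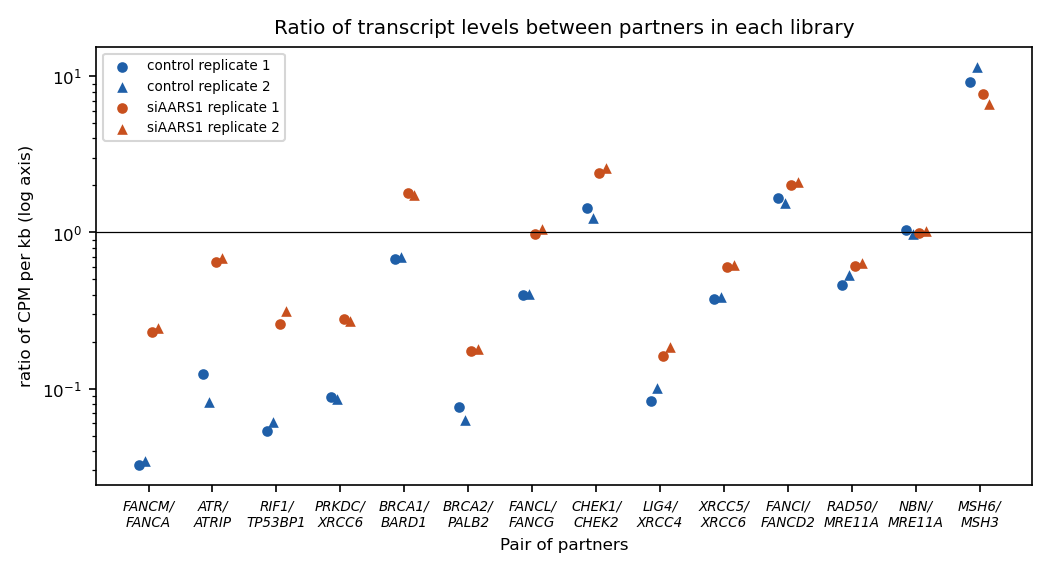
Ratio of CPM per kb between 2 partner genes (log axis) in each control (blue) and siAARS1 (red) library, for 14 pairs ordered by the change. The pairs at the left gained up to 7.10-fold between group means, NBN to MRE11A stayed at 1, and MSH6 to MSH3 fell.

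The members differed from other genes in the make-up of their transcripts, and this moved with the result. The 32 genes that rose had transcripts of 35.5% to 46.05% GC, and the 14 that fell or were not called had 45.4% to 62.5%. The median was 42.4% over the members and 49.8% over all tested genes, and the median transcript length was 4380 against 2975 bases. When all tested genes were split into 5 equal classes by GC content, 20 members fell in the lowest class (27.8% to 41.7% GC). All 20 rose, 18 of them at least 2-fold, with a median log2 fold change of 2.18. In the same class, 79.8% of all tested genes rose, 38.9% at least 2-fold, with a median of 0.76. In the next class 12 of 15 members rose, 8 of them at least 2-fold, and the median was 1.03 against 0.20 for all genes there. The 6 members of class 4 (52.8% to 59.2% GC) had a median of -0.20 against -0.24. The rank correlation of the fold change with transcript GC content was -0.76 over the 46 members and -0.65 over 13819 genes, and that with length was 0.45 and 0.29. Against the median of genes in the same GC class and the same of 3 length classes, 40 of the 46 were higher, as were 6905 of all 13819 genes. This grouping was chosen after the values had been seen.

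**Figure D3:**
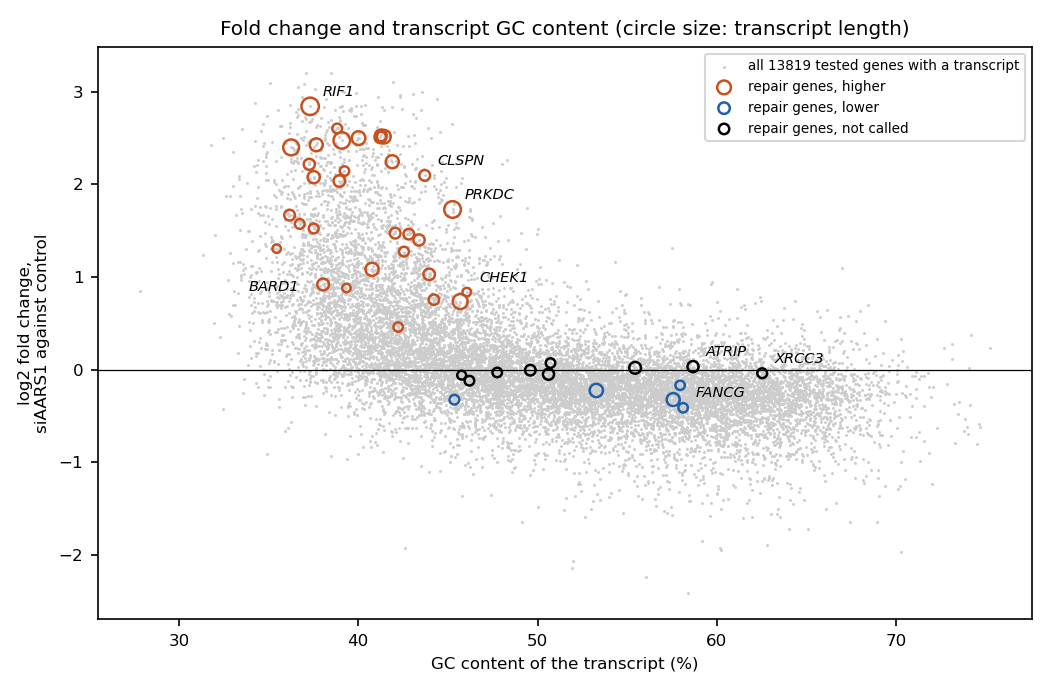
Log2 fold change of siAARS1 against control (y axis) by GC content of the transcript in percent (x axis), for 13819 tested genes (grey) and the 46 repair genes (circles, sized by transcript length). The genes that rose (red) lie at or below 46.05% GC, mostly above the grey cloud at the same GC content, and those that fell (blue) or were not called (black) lie at 45.4% GC or more.

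For this reason the fold changes are also given after the smooth trend of each library over GC content and length had been taken out. With the trend over the whole transcript removed, 34 members were higher (32.3% of all genes), 6 lower (33.6% of all genes) and 11 at least 2-fold higher (3.5% of all genes), and the median fell from 1.29 to 0.71. RBBP8 kept 1.77, BLM 1.66, CLSPN 1.65, TOPBP1 1.64 and RIF1 1.33 on the log2 scale, whereas BARD1 went from 0.92 to -0.37 and MSH6 from 1.08 to -0.10, both called lower. When the GC content and length of the coding sequence and the 3′ UTR were used instead, 20 members were higher (33.5% of all genes), 12 lower (31.8% of all genes) and 1, RBBP8 at 1.05, at least 2-fold higher (1.25% of all genes). The median of the members was then 0.13, and that of all genes 0.01. Of the genes that rose in the deposited CPM, 6 were called lower in that fit, ATM at -0.16, BARD1 at -0.30, FANCD2 at -0.18, MSH6 at -0.42, RAD54B at -0.22 and XRCC5 at -0.13. RIF1 stood at -0.08 and was not called, and BRCA2, FANCB, LIG4, MSH3, PALB2, PRKDC and WRN lay at 0.00 to 0.16, above 0 but not past the threshold. The decreases of SLX4 and MDC1 shrank to -0.03 each and were not called after the first correction. In the fit on coding sequence and 3′ UTR, SLX4 again stood at -0.03, while MDC1 was called lower at -0.20. Also called lower in that fit were PMS2 at -0.55, CHEK2 at -0.31, FANCF at -0.24, FANCG at -0.16 and PARP1 at -0.13. With each library divided by its median instead, which moved all fold changes by about -0.21, 32 members were higher and 14 lower, where 23.8% and 56.3% of all genes were. With quantile normalization, 32 were higher and 9 lower, where 28.1% and 47.7% of all genes were. In all 17 fits run, 15 genes stayed higher and past the threshold, namely ATR, BLM, BRCA1, CHEK1, CLSPN, FANCI, FANCL, FANCM, MRE11A, NBN, RAD50, RBBP8, TOPBP1, XRCC2 and XRCC4, and FANCF and FANCG stayed lower.

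**Figure D4:**
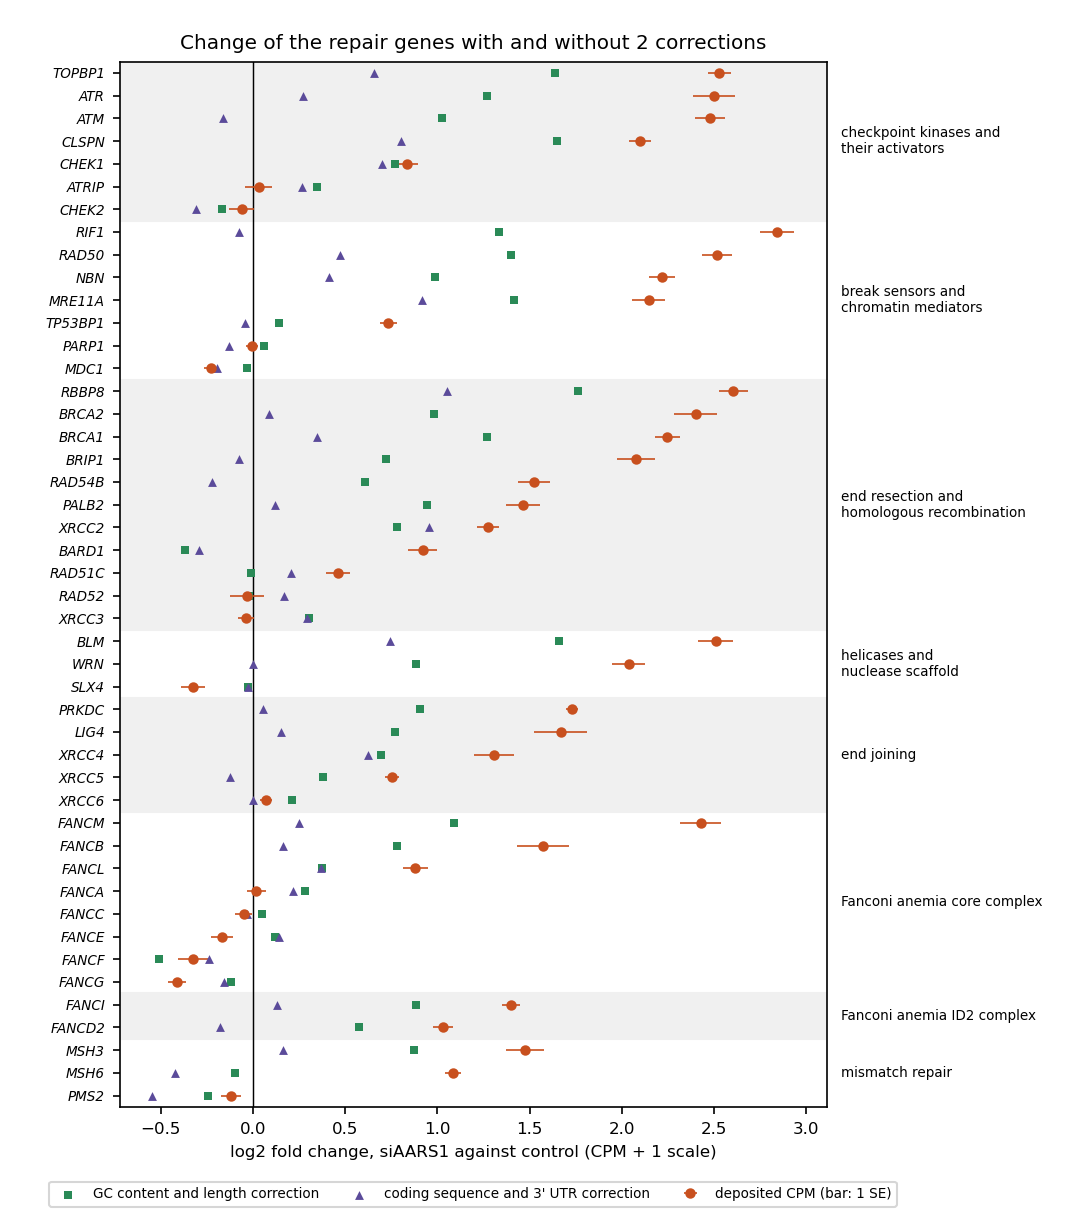
Log2 fold change of each of the 46 genes from the deposited CPM (red circles, bar of 1 SE), after the GC content and length correction (green squares) and once coding sequence and 3′ UTR were corrected for (purple triangles). The corrections bring most increases toward 0, from a median of 1.29 to 0.71 and 0.13, while RBBP8 stands at 2.61, 1.77 and 1.05.

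For 12 of the members, the start was compared with that of another tested gene that lies within 1000 bases and is read in the opposite direction, so that both may use 1 stretch of promoter DNA. These pairs were looked up after the values had been seen. The member was higher than its neighbour in 11 of the 12 pairs, with a median log2 fold change of 1.52 against 0.25. Of the neighbours of the 9 members that rose, 7 rose, 1 fell and 1 was not called. BRCA1 starts 127 bases from NBR2, a long noncoding RNA gene, across the bases printed above. NBR2 was at 4.14 and 4.63 CPM in control against 5.02 and 6.47 CPM in siAARS1 (log2 0.32), beside 2.25 for BRCA1. PALB2 starts 82 bases from DCTN5, a dynactin subunit gene, again across the printed bases. DCTN5 was at 112 and 103 against 110 and 115 CPM (log2 0.06, limma adjusted p = 0.23), beside 1.46 for PALB2. PRKDC and the replicative helicase gene MCM4 differed as well, at 1.73 and 0.17. In 2 of the pairs whose member rose, the neighbour's value lay close to it. ATM and NPAT, a regulator of histone genes, were at 2.48 and 2.71, and FANCB and MOSPD2 at 1.57 and 1.56. The absolute difference within a pair had a median of 1.04 on the log2 scale over these 12 pairs, and 0.34 over 1131 such pairs of all tested genes. With the trend over transcript GC content and length removed it was 0.65 in the 12 pairs. The matching value over the 1131 pairs was not computed. The median GC content was 42.4% for the members and 47.6% for their neighbours.

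**Figure D5:**
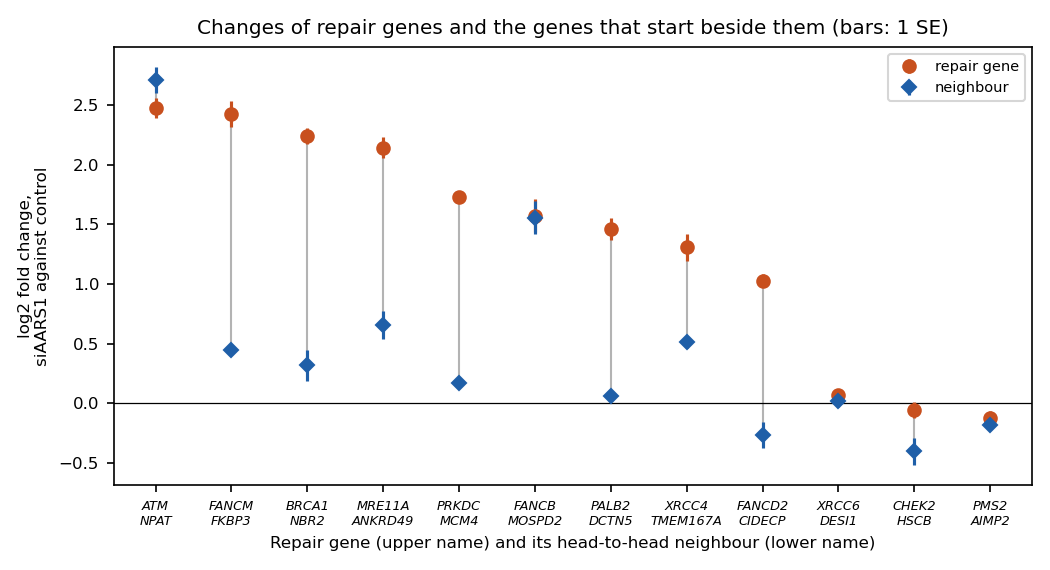
Log2 fold change (y axis, bars of 1 SE) of 12 repair genes (red circles) and of the genes that start beside them in the opposite direction (blue diamonds), joined by a line for each pair. The red point is above the blue one in all pairs except ATM and NPAT, and the lines are longest for FANCM and BRCA1.

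In the 300-base RefSeq promoters, of 250 bases before and 50 after a start, 40 members were matched with 57 promoters. Either E2F motif was found in 7 of the 57, or 12.3%, against 2.27% of all 35116 promoters and 3.39% of 14234 promoters of tested genes. The 7 belong to CLSPN, FANCC, FANCD2, MSH3, MSH6, XRCC2 and XRCC6, of which 5 rose and FANCC and XRCC6 were not called. In CLSPN the match lay outside the bases printed above. The CCAAT box was found in 49.1% of the 57, against 34.6% of all promoters and 34.7% of those of tested genes. The GC box was found in 73.7%, against 45.0% and 66.0%. The TEAD motif, to which the partner of YAP binds, was in 17.5%, against 14.0% of all promoters and 11.4% of those of tested genes, and 10 promoters of ATRIP, CHEK1, FANCA, FANCM, MSH6 and RAD51C held it. The CHR motif was in 8.77%, against 15.2% and 10.3%. Several promoters belong to 1 gene, and a match of letters is a description only.

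Other repair genes had a median nearer to 0. The 7 further lists of recombination, checkpoint, end joining, Fanconi anemia, mismatch, base excision and nucleotide excision repair genes held 105 listed genes of 109, of which 39 rose, 34 fell and 32 were not called by limma, with a median log2 fold change of 0.03 and 16 at least 2-fold higher. Over all tested genes 32.6% rose, 38% fell and 10.6% rose at least 2-fold. With median scaling 31 of the 105 were higher and 60 lower, with a median of -0.19, where 23.8% and 56.3% of all genes were. Their transcripts had a median GC content of 48.0% and a median length of 2671 bases, against 42.4% and 4380 bases for the members. With the trend over the whole transcript removed, their median was 0.06, against 0.71 for the members. In the fit on coding sequence and 3′ UTR it was 0.03, against 0.13 for the members, with 33 of 104 higher and 31 lower. Of all genes in that fit, 33.5% were higher and 31.8% lower. Of 34 other recombination and break response genes, 14 rose and 10 fell, from GEN1, a resolvase, at 2.43 to SWI5 at -0.49. Of 11 other checkpoint genes, 3 rose and 2 fell, from ETAA1, an ATR activator, at 2.34 to CDC25C at -0.40. Of 8 other end joining genes, 1 rose, the nuclease gene DCLRE1C at 0.77, and 4 fell. Of 11 other Fanconi anemia genes, 5 rose and 4 fell, from USP1, which removes ubiquitin from FANCD2, at 2.27 to C17orf70 at -0.49. All 3 other mismatch repair genes rose, PMS1 the most at 1.91. Base excision repair, with 6 of 18 higher and 6 lower, ran from SMUG1 at -0.57 to MBD4 at 0.86. Nucleotide excision repair, with 7 of 20 higher and 8 lower, ran from DDB2 at -0.63 to ERCC5 at 1.16. The genes with the highest value in 4 of these lists, GEN1, ETAA1, USP1 and PMS1, had transcripts of 36.6% to 40.9% GC, within the range of the members that rose.

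Cell cycle genes were counted because many of the members are transcribed in S and G2 phase. Of 22 S phase genes, 13 rose, 1 fell and 8 were not called, with a median of 0.16, from CDT1 at -0.22 to CCNE2 at 1.61. With median scaling, 6 were higher and 9 lower and the median was -0.07, so the sign of the median turned with this scaling. The 2 corrected fits covered 21 of the S phase genes. With the trend over the whole transcript removed, 17 were higher and 2 lower, with a median of 0.20. In the fit on coding sequence and 3′ UTR, 15 were higher and 2 lower, with a median of 0.16. The summed level of the 22 genes was 4055 and 4077 CPM in control against 4595 and 4571 CPM in siAARS1. Of 21 G2 and M phase genes, 13 rose and 6 fell, with a median of 0.53, from AURKB at -0.41 to TOP2A at 3.01, and they summed to 2305 and 2317 CPM in control against 3283 and 3362 CPM in siAARS1. The median of the G2 and M phase genes was 0.14 with the trend over the whole transcript removed and 0.03 in the fit on coding sequence and 3′ UTR, with 8 higher and 8 lower in the latter. Over all tested genes 32.6% rose and 38% fell, and with median scaling 23.8% were higher and 56.3% lower. With the trend over the whole transcript removed, 32.3% of all genes were higher and 33.6% lower. In the fit on coding sequence and 3′ UTR, 33.5% of all genes were higher and 31.8% lower. The part of the changes of cell cycle genes in the results for the repair genes was not tested.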

How the data were processed

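Bulk RNA-seq of 4 HGC27 libraries, 2 control and 2 siAARS1, was analysed, with groups and replicate numbers from the sample titles. The authors deposited CPM values for 14431 genes. Per the submitters' processing notes RSEM 1.3.3 and hg38 were used, in a role that is not given in the sources used here, as are strand and annotation. CPM corrects for neither gene length nor GC content. The CPM steps gave back whole reads for 99.97% to 100% of the deposited values (tolerance 0.000501 CPM), a recovered count of 30653210 to 33522573 reads per library. The members and gene lists were chosen with earlier results of these data known.

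The main test was limma 3.58.1 (R 4.3.3) on log2(CPM + 1) over 14199 genes (group mean of 1 CPM or more), with Benjamini-Hochberg adjustment over all of them and a threshold of 0.05. Alternatives were a pseudocount of 0.1, no filter, median scaling, quantile normalization, a threshold of 0.01, a replicate block, leaving out each library, edgeR 4.0.16 and DESeq2 1.42.0 on recovered reads, and the removal of trends over GC content and length (mgcv 1.9.3; GENCODE transcripts of GRCh38, found for 97.2% of listed genes; the authors' annotation may differ). Scripts were tested on simulated data. Chi-square per gene, taken against counting error, was 3.62 between controls and 3.60 between siAARS1 libraries, and all 4 were counted as separate samples. Such a spread does not show that the libraries came from separate cultures. Values in every library are given for AARS, ATM, ATR, BRCA1 and BRCA2, for the highest and lowest member of each role and for members not called, and the highest and lowest gene of each other list is named. Some genes are not reported here.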

Additional observations from a re-analysis of the deposited data

How the results depend on the processing

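The count of members that rose was 32 to 34 in all fits except the one on coding sequence and 3′ UTR, where it was 20. The count that fell was 5 in the main test and 14 with median scaling, 9 with quantile normalization and 12 in the fit on coding sequence and 3′ UTR. Those at least 2-fold higher were 26 in the main test, 11 with the GC content and length correction and 1 in the fit on coding sequence and 3′ UTR. Leaving out 1 library gave 36 to 38 called, 32 to 32 higher, 4 to 6 lower and 25 to 27 at least 2-fold higher. The fit with the replicate block called 38 members, PMS2 in addition. Same-numbered libraries shared a number and had adjacent identifiers in their library names (correlation of their deviations 0.118 over genes). The labels do not say whether they form pairs, so the block rests on no stated pairing. Direction turned on the log2 scale as follows. With the GC content and length correction, BARD1 stood at -0.37, MSH6 at -0.10, RAD51C at -0.0117, FANCC at 0.0499, FANCE at 0.12, PARP1 at 0.0573 and XRCC3 at 0.30. With coding sequence and 3′ UTR corrected for, MSH6 stood at -0.42, BARD1 at -0.30, RAD54B at -0.22, FANCD2 at -0.18, ATM at -0.16, XRCC5 at -0.13, RIF1 at -0.0769, BRIP1 at -0.0736, TP53BP1 at -0.0426, FANCE at 0.14, RAD52 at 0.17 and XRCC3 at 0.29. With median scaling ATRIP stood at -0.19, FANCA at -0.21 and XRCC6 at -0.16, and with quantile normalization ATRIP at -0.18 and FANCA at -0.0920. With edgeR and TMM, PARP1 stood at 0.0309 and RAD52 at 0.0049. With edgeR and RLE, and with DESeq2, FANCC stood at 0.000907 and 0.000940, PARP1 at 0.0454 in both, RAD52 at 0.0192 and 0.0189 and XRCC3 at 0.0113 and 0.0114. Leaving out 1 library, ATRIP ran from -0.0291 (without siAARS1 replicate 1; also below 0 without control replicate 1) to 0.0927, FANCA from -0.0052 (without siAARS1 replicate 1) to 0.0426, and RAD52 from -0.0967 to 0.0331 (without control replicate 2; also above 0 without siAARS1 replicate 1). The cause of these turns was not tested. The pseudocount, the filter and the threshold moved no count beyond 1 gene. With 2 libraries per group the spread rests on few values, and depth limits precision most for LIG4, FANCB and BRCA2.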
